A study of Homo sapiens with 6 samples.

Results

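The genes examined were 10 genes of the endoplasmic reticulum (ER) stress and ATF4 responses, namely HSPA5, XBP1, HERPUD1, DNAJB9, ATF4, ATF3, DDIT3, TRIB3, ASNS and CHAC1. They were taken by symbol from a gene table of 25369 genes, where each symbol had 1 row, and all 10 were among the 13303 genes that passed a filter on low values (at least 10 normalized counts in at least 3 samples). RNA sequencing was done on Caki2 cells, a clear cell renal cell carcinoma (ccRCC) line that makes no PBRM1 protein. Cells carrying an empty vector (Caki2+Vector, 3 samples) were compared with cells in which the lentiviral vector TetO-FUW held PBRM1 (Caki2+PBRM1, 3 samples). PBRM1 is a subunit of the PBAF chromatin remodeling complex. The methods of the paper name TetO-FUW for PBRM1 only. The question was which genes changed when PBRM1 was put back. Expression from TetO-FUW, used with a separate lentiviral rtTA3 construct, was induced by doxycycline. Both groups were drug-selected stable lines given 2 µg/mL doxycycline for at least 72 h. Each group was a single engineered line, so that PBRM1 and any other difference between the lines cannot be told apart. The samples of each group are lettered A, B and C. The paper calls them biological replicates, but the labels do not say whether they were separate cultures, and p-values measure the spread between these samples.

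The ER is where secreted and membrane proteins are folded. When unfolded protein builds up there, sensor proteins in its membrane start the unfolded protein response: IRE1 splices XBP1 mRNA, ATF6 is cut to release a transcription factor, and PERK phosphorylates the initiation factor eIF2 alpha. XBP1 and ATF6 raise chaperones and degradation factors of the ER. Phosphorylated eIF2 alpha slows translation of most mRNAs but raises that of ATF4, whose targets include amino acid genes and the stress genes ATF3, DDIT3, TRIB3 and CHAC1. Other eIF2 alpha kinases reach ATF4 without ER stress, for example when amino acids are short. Counts per gene do not separate spliced from unspliced XBP1 mRNA and do not measure ATF4 protein.

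PBRM1 itself was at 182 to 195 normalized counts in the Caki2+Vector samples and at 2432 to 2682 in the Caki2+PBRM1 samples, which was the order the labels give. A normalized count is the number of reads on a gene divided by a scaling factor of its sample. The samples held 7312955 to 10835355 reads on genes. Caki2+Vector replicate A stood apart from its group: over genes with at least 20 reads, chi-square per degree of freedom was 3.09 and 2.84 against replicates B and C and 1.34 between those, while the Caki2+PBRM1 pairs were at 1.19 to 1.22. Pairs without Caki2+Vector replicate A thus differed little beyond the noise of counting reads. Small p-values here may say little about the spread between independent cultures. Of 9 kidney tubule and ccRCC markers, 8 were at 10 normalized counts or more in every sample, including PAX8, and the other, CA9, which marks most ccRCC tumors, was at 0 to 15.2. Summed over the list, the levels of the Caki2+Vector samples were 31378 to 32257 and those of the Caki2+PBRM1 samples 32012 to 32830. Most of this sum was VIM and KRT8, and means of single markers differed: the mean of the Caki2+Vector samples against that of the Caki2+PBRM1 samples was 104 against 393 normalized counts for NDUFA4L2, 1.58 against 10.3 for CA9 and 3529 against 2786 for KRT18. Of 10 leukocyte, endothelial, erythroid, hepatocyte and stromal markers, CD68 and PDGFRB were at 10 or more in every sample, CD3E, CDH5, HBB and ALB were at 0 in all samples, and the sums were 2022 to 2167 and 1925 to 1968.

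The ER genes HERPUD1, DNAJB9 and XBP1 were higher in Caki2+PBRM1 and the chaperone gene HSPA5 was not, while TRIB3 was lower and ATF4, ATF3, DDIT3 and ASNS did not pass the test. HERPUD1 was 1.62-fold higher. CHAC1 was also 1.62-fold higher, but at a low level and with an adjusted p at the edge of the threshold. In the test over the whole table (limma on log2(normalized count + 1), with p adjusted by Benjamini-Hochberg over all tested genes and a threshold of 0.05), 4 of the 10 genes were called higher and 1 lower, beside 16.2% and 13.0% of all tested genes. Normalized counts of the groups did not overlap for 5 of the 10, beside 41.7% of all tested genes. The median log2 fold change was 0.03 over the 10 genes and -0.0036 over all tested genes, and the median size of the change among all called genes was 0.31. By branch, 3 of the 4 ER genes (HSPA5, XBP1, HERPUD1, DNAJB9) were called higher with a median of 0.32, and of the 6 ATF4 branch genes 1 was higher, 1 lower and 4 not called, with a median of -0.0053. In bulk RNA, fewer cells expressing a gene and less RNA per cell cannot be told apart.

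**Figure D1:**
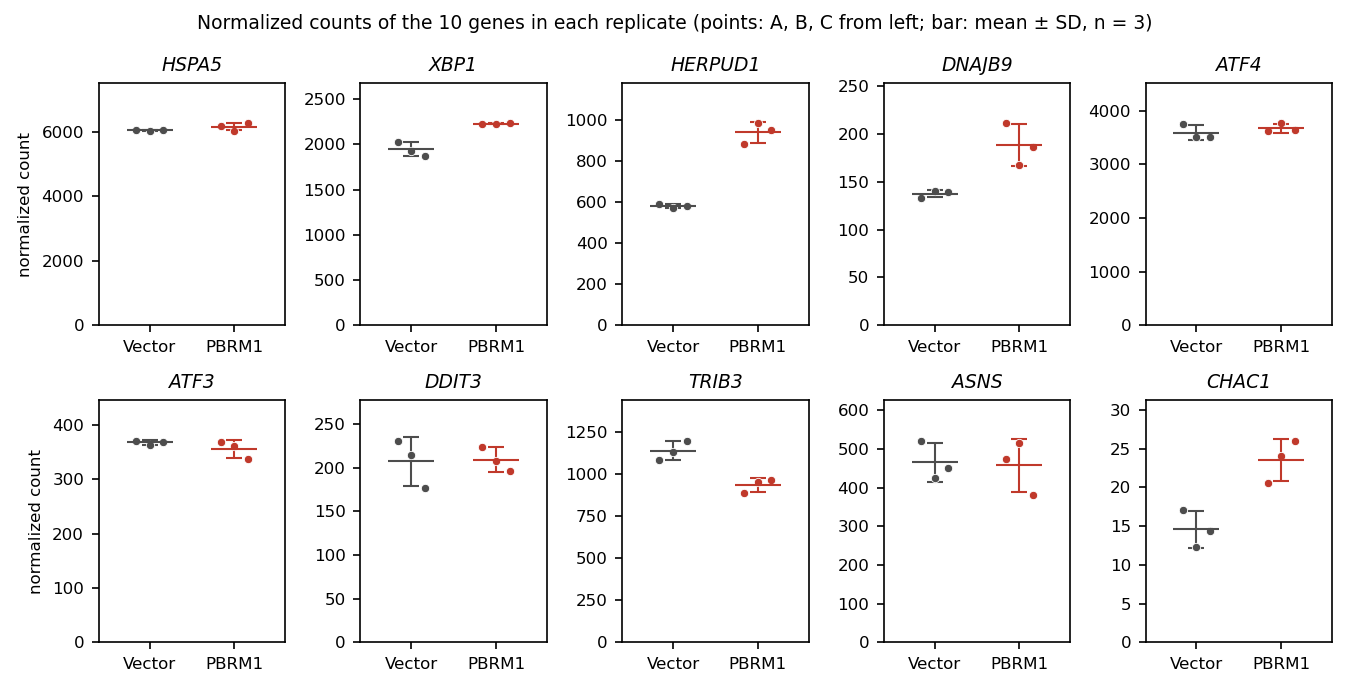
Normalized counts of the 10 genes in each of the 3 Caki2+Vector and 3 Caki2+PBRM1 samples, with 1 panel per gene, points for samples and bars for the mean ± SD. The groups are separate for XBP1, HERPUD1, DNAJB9, TRIB3 and CHAC1 and overlap for the other 5 genes.

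HSPA5 (BiP), the main Hsp70 chaperone of the ER and the usual readout of ER stress, lies at chr9:127997132-128003661 on the minus strand of GRCh37. It was at 6057, 6041 and 6061 normalized counts in Caki2+Vector replicates A, B and C and at 6197, 6048 and 6271 in Caki2+PBRM1. Caki2+PBRM1 replicate B fell inside the Caki2+Vector range, so the groups overlapped. The means were 6053 ± 10.7 and 6172 ± 114 (SD, n = 3 each), a log2 fold change of 0.03 with a 95% interval of -0.04 to 0.10 and a limma adjusted p of 0.574.

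XBP1, the transcription factor made active by IRE1 splicing, lies at chr22:29190543-29196585 on the minus strand. It was at 2027, 1929 and 1873 normalized counts in Caki2+Vector and at 2225, 2221 and 2232 in Caki2+PBRM1. Every Caki2+PBRM1 sample was above every Caki2+Vector sample, and the Caki2+PBRM1 values lay close together (2226 ± 5.32 against 1943 ± 77.7). The gain was 14.6%, a log2 fold change of 0.20 ± 0.04 (SE) with a limma adjusted p of 4.97e-04. An exact permutation test gave p = 0.1, the smallest that 3 samples against 3 allow, for this gene and for each of the other genes without overlap.

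HERPUD1, an ER membrane protein that takes part in the degradation of misfolded ER proteins, lies at chr16:56966054-56978776 on the plus strand. Its normalized counts were 589, 572 and 581 in Caki2+Vector and 883, 982 and 950.1 in Caki2+PBRM1. The gap between the groups was wider than the spread inside either one. The means of 581 ± 8.65 and 938 ± 50.7 gave a log2 fold change of 0.69 ± 0.05 (SE; 95% interval 0.58 to 0.80) with a limma adjusted p of 3.81e-11.

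DNAJB9 (ERdj4), an ER J-domain co-chaperone of BiP that binds misfolded proteins and IRE1, lies at chr7:108210311-108215294 on the plus strand. It was at 133, 141 and 139 normalized counts in Caki2+Vector and at 211, 168 and 186 in Caki2+PBRM1. Caki2+PBRM1 replicate A was highest and replicate B lowest in that group, still above all Caki2+Vector samples. The means were 138 ± 3.81 and 189 ± 21.7, a 1.37-fold difference, with a log2 fold change of 0.44 ± 0.10 (SE) and a limma adjusted p of 0.00106.

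Without Caki2+Vector replicate A, the log2 fold changes were 0.23 for XBP1, 0.70 for HERPUD1 and 0.42 for DNAJB9, and all stayed past the threshold. They stayed past it in each of the 15 alternative settings, with ranges of 0.16 to 0.23, 0.66 to 0.73 and 0.36 to 0.52. HSPA5 passed in none of these settings, with changes of 0.0051 to 0.04.

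Promoters of ER stress genes are known to be read through short elements, and the promoters of the ER genes in which such letters were found are shown here. The windows run from 250 bases before to 50 bases after the transcript start, 5′ to 3′ on the gene's strand, and come from RefSeq (GRCh38.p14), which gave a window for all 10 genes. The ER stress response element (ERSE) was searched as CCAAT, 9 unspecified bases and CCACG, and ERSE-II as ATTGG, 1 unspecified base and CCACG. An element of C/EBP-ATF dimers, to which ATF4 binds, was searched as TGATG, 1 unspecified base and AA. Both strands were searched, and capitals mark the matched bases.
HSPA5 promoter (chr9:125241294-125241593, minus strand, ERSE): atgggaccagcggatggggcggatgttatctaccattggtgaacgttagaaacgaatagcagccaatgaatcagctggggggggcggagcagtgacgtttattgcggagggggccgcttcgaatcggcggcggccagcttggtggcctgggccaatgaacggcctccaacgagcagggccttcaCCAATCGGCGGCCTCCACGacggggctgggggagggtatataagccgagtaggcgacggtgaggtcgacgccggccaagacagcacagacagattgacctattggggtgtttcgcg
XBP1 promoter (chr22:28800520-28800819, minus strand, ERSE): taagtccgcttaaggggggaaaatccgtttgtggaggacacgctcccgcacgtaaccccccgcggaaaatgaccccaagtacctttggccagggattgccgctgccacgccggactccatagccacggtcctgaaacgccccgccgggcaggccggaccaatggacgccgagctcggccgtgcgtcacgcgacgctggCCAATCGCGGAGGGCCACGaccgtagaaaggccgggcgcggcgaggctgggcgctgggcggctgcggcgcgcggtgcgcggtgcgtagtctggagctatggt
HERPUD1 promoter (chr16:56931892-56932191, plus strand, C/EBP-ATF element on the opposite strand and then ERSE-II): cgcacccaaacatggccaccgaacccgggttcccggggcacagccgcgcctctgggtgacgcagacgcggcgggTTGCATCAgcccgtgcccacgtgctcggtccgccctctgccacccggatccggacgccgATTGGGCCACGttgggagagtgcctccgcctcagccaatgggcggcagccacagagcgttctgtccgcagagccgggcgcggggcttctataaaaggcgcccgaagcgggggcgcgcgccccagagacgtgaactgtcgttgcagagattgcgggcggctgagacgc

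The ERSE match lay 66 to 48 bases before the start of HSPA5 and 52 to 34 bases before that of XBP1. Of the 2 genes with this match, XBP1 was called higher and HSPA5 was not. HERPUD1 alone among the 10 had the ERSE-II letters, 117 to 107 bases before its start, and also had a C/EBP-ATF match 176 to 169 bases before it. None of the searched letters was in the DNAJB9 window. Of 27305 promoter windows, 22 (0.0806%) held the ERSE letters and 15 (0.0549%) the ERSE-II letters. Among genes tested here, 3 of 13 with ERSE were called higher and 0 lower, and 3 of 10 with ERSE-II were called higher and 3 lower, beside 16.2% higher and 13.0% lower over all tested genes. These counts include HSPA5 and XBP1 for ERSE and HERPUD1 for ERSE-II, so they add little to the values of these genes.

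**Figure D2:**
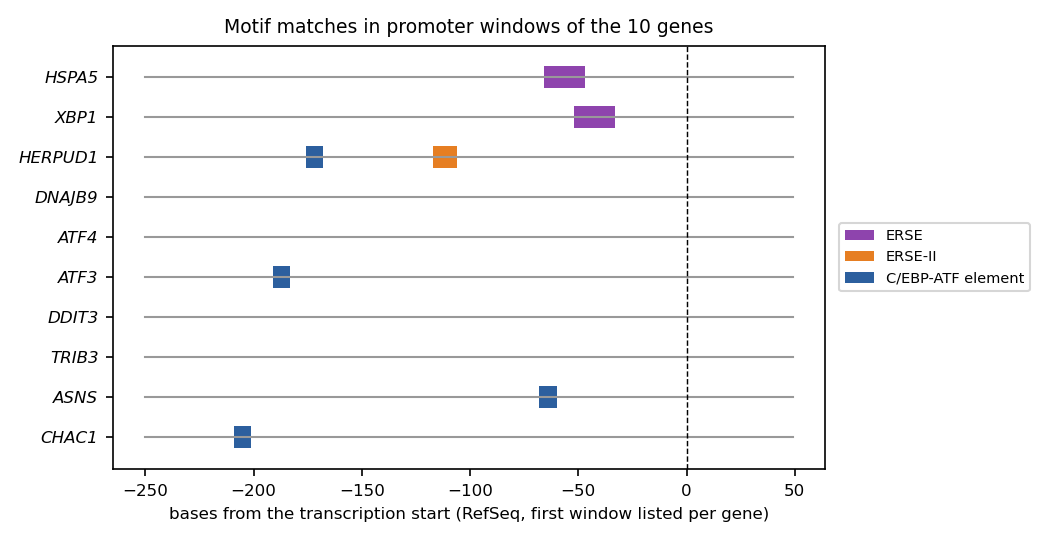
Places of the motif matches in the first listed RefSeq promoter window of each of the 10 genes, with the distance from the transcript start in bases on the x axis. HSPA5 and XBP1 have an ERSE, HERPUD1 an ERSE-II, and HERPUD1, ATF3, ASNS and CHAC1 a C/EBP-ATF element, while the other 4 windows have no match.

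ATF4, the transcription factor at the center of the integrated stress response, lies at chr22:39915700-39918688 on the plus strand of GRCh37. Its normalized counts were 3759, 3501 and 3514 in Caki2+Vector and 3613, 3763 and 3638 in Caki2+PBRM1. The groups overlapped, since Caki2+Vector replicate A was above replicates A and C of Caki2+PBRM1. The means were 3592 ± 145 and 3672 ± 80.3, with a log2 fold change of 0.03 (95% interval -0.05 to 0.11) and a limma adjusted p of 0.571.

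ATF3 is a stress-induced repressor and activator of the same family, at chr1:212738676-212794119 on the plus strand. It was at 371, 363 and 369 normalized counts in Caki2+Vector and at 369, 361 and 337 in Caki2+PBRM1. Caki2+PBRM1 replicate C was the lowest sample, and the other samples of both groups lay between 361 and 371. The log2 fold change was -0.05 (95% interval -0.19 to 0.09), with a limma adjusted p of 0.651.

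DDIT3 encodes CHOP, the factor tied to cell death under lasting ER stress, and lies at chr12:57910371-57915520 on the minus strand. It was at 231, 214 and 176 normalized counts in Caki2+Vector and at 224, 207 and 196 in Caki2+PBRM1. All Caki2+PBRM1 samples fell inside the Caki2+Vector range. The means of 207 ± 28.1 and 209 ± 14.03 gave a log2 fold change of 0.02 (95% interval -0.18 to 0.22) and a limma adjusted p of 0.896. Exons of DDIT3 overlap exons of MBD6 on the opposite strand. Whether the reads were counted by strand is not given in the sources used here, and reads of these genes may then not be told apart.

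TRIB3, a pseudokinase that is a target of ATF4 and CHOP and holds back ATF4 in turn, lies at chr20:343479-378203 on the plus strand. Its normalized counts were 1085, 1128 and 1197 in Caki2+Vector and 885, 949 and 966 in Caki2+PBRM1. Every Caki2+PBRM1 sample was below every Caki2+Vector sample. The means were 1137 ± 56.7 and 933 ± 42.8, so that TRIB3 fell by 17.9%, with a log2 fold change of -0.28 ± 0.05 (SE; 95% interval -0.39 to -0.18) and a limma adjusted p of 8.25e-05. It was -0.32 without Caki2+Vector replicate A and between -0.32 and -0.25 over the 15 alternatives, past the threshold in all of them.

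ASNS, asparagine synthetase and a much used readout of ATF4 activity under amino acid shortage, lies at chr7:97480989-97501854 on the minus strand. It was at 522, 425 and 451 normalized counts in Caki2+Vector and at 474, 516 and 382 in Caki2+PBRM1. Both groups were spread widely, with the highest sample in Caki2+Vector and the lowest in Caki2+PBRM1. The means of 466 ± 49.99 and 458 ± 68.8 differed by -0.03 on the log2 scale (95% interval -0.25 to 0.18), with a limma adjusted p of 0.849.

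CHAC1, which breaks down glutathione and is induced by ATF4, lies at chr15:41245160-41248710 on the plus strand. It was at 17.0, 12.3 and 14.4 normalized counts in Caki2+Vector and at 20.6, 24.0 and 26.0 in Caki2+PBRM1. These values came from 18, 13 and 12 reads and from 19, 27 and 31 reads. The groups did not overlap (14.6 ± 2.38 against 23.5 ± 2.75), and the log2 fold change was 0.66 ± 0.25 (SE; 95% interval 0.14 to 1.18) with a limma adjusted p of 0.0497. On the scale of log2(normalized count + 1), the change of so low a gene is understated. CHAC1 passed the threshold in 4 of the 15 alternatives, with an adjusted p between 0.0323 and 0.214 over all of them. Leaving out Caki2+Vector replicate B or C or any Caki2+PBRM1 replicate lost the call, with adjusted p of 0.146, 0.0779, 0.0612, 0.127 and 0.178 in that order. Without Caki2+Vector replicate A it was 0.0323.

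**Figure D3:**
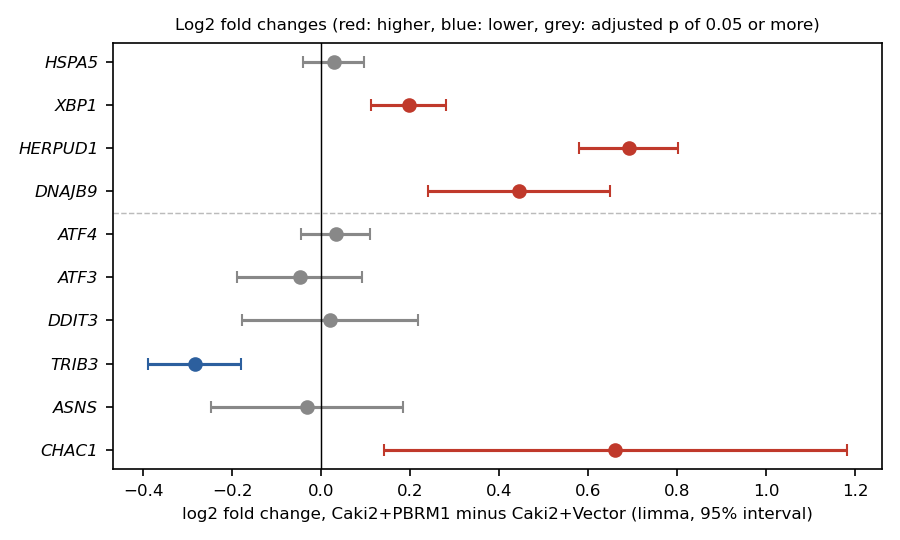
Log2 fold changes (Caki2+PBRM1 minus Caki2+Vector, from limma on log2(normalized count + 1)) of the 10 genes with 95% intervals. HERPUD1, DNAJB9, XBP1 and CHAC1 are above 0, TRIB3 is below 0, and the intervals of the other 5 genes include 0.

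Promoter windows of the ATF4 branch with a match are shown for ASNS and CHAC1, which carry the C/EBP-ATF element in capitals in opposite orientations.
ASNS promoter (chr7:97872359-97872658, minus strand): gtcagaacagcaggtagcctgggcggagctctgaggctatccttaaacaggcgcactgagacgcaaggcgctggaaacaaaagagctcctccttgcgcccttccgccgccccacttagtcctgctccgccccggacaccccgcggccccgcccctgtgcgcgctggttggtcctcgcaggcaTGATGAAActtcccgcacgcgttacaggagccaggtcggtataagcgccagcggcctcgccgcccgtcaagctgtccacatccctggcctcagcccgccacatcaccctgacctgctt
CHAC1 promoter (chr15:40953221-40953520, plus strand, element on the opposite strand): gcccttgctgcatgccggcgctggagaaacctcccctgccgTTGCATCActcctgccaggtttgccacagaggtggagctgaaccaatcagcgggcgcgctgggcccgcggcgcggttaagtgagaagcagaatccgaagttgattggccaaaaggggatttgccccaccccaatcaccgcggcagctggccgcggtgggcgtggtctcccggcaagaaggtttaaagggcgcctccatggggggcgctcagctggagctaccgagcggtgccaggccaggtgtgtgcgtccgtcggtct

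The match lay 68 to 61 bases before the start of ASNS, 209 to 202 before that of CHAC1 and, in a window not shown, 191 to 184 before that of ATF3. Of the 4 genes with it, HERPUD1 and CHAC1 were called higher and ASNS and ATF3 were not called. The windows searched for ATF4, DDIT3 and TRIB3 held none of the searched letters. RefSeq lists 2, 2 and 3 windows for these genes, and 2 each for XBP1, ATF3 and ASNS. Only the first listed was searched, so the letters may lie in the others. The C/EBP-ATF letters are short and were in 1003 of 27305 windows (3.67%). Of 156 tested genes with them, the 4 named here included, 30 (19.2%) were called higher and 26 (16.7%) lower. A core of the XBP1 and ATF6 element, TGACGTGG, was in 217 windows (0.795%) and in none of the 10. Of 97 tested genes that held it, 34 (35.1%) were called higher and 5 (5.16%) lower, with a median log2 fold change of 0.08. The cAMP response element TGACGTCA, which shares TGACGT with that core, was in 540 windows (1.98%), and 55 of 320 tested genes with it (17.2%) were called higher and 37 (11.6%) lower. Over all tested genes the shares were 16.2% and 13.0%, and those of genes with the C/EBP-ATF or cAMP letters lay near them. Whether the shares with the TGACGTGG core differ from the background was not tested, and shares among genes of like level were not counted. These are counts of letters in windows and not of bound sites.

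Ratios of reads within a sample do not depend on the scaling between samples. For each 100 reads of HSPA5, HERPUD1 had 9.72, 9.46 and 9.59 reads in Caki2+Vector and 14.2, 16.2 and 15.1 in Caki2+PBRM1. DNAJB9 had 2.20, 2.33 and 2.29 reads per 100 of HSPA5 against 3.41, 2.78 and 2.97, and XBP1 had 33.5, 31.9 and 30.9 against 35.9, 36.7 and 35.6. None of these ratios overlapped between the groups. HSPA5 changed little and the other ER genes were already separate, so the ratios largely restate the values of the single genes. How often ratios of other gene pairs are separate was not counted. TRIB3 had 28.9, 32.2 and 34.1 reads per 100 of ATF4 in Caki2+Vector and 24.5, 25.2 and 26.6 in Caki2+PBRM1, again without overlap. ASNS per 100 reads of ATF4 overlapped, at 12.9 ± 0.87 and 12.4 ± 1.72 (SD, n = 3 each), and TRIB3 per 100 reads of DDIT3 also overlapped.

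Levels can be compared between genes only per length of transcript. In normalized counts per kb of the canonical transcript, ATF4 was highest in Caki2+Vector at 2531 ± 102 (SD, n = 3), followed by HSPA5 at 1544 ± 2.72, XBP1 at 1085 ± 43.4 and TRIB3 at 483 ± 24.1. DDIT3 (229 ± 31.1), HERPUD1 (203 ± 3.03), ASNS (195 ± 21.0) and ATF3 (190 ± 2.24) came next, and neighbors in this run differed by less than their spread. DNAJB9 at 57.2 ± 1.58 and CHAC1 at 9.58 ± 1.57 were lowest. In Caki2+PBRM1, HERPUD1 at 329 ± 17.8 per kb was above DDIT3 at 232 ± 15.5, and TRIB3 was at 396 ± 18.2, while the order of the other genes was the same. HSPA5, XBP1, ATF4 and ASNS have annotated pseudogenes (1, 1, 4 and 5), and how reads shared with them were counted makes their levels uncertain.

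The wider pathway was described with 10 lists of known genes, 131 in all, of which 130 were tested and FGF21 was at 0 in every sample. Of the tested genes, 33 were called higher, 31 lower and 66 neither. The shares over all tested genes, 16.2% higher and 13.0% lower, are the background for the counts of every list. This background is imperfect. Many listed genes are well expressed, with an SE below the median of 0.083 over all tested genes. Small changes are then called more easily, as for HSPH1 at -0.11 (SE 0.04). Shares among genes of like level were not counted. Among 14 sensors and regulators, 3 were higher and 4 lower (median log2 fold change 0.02). EIF2AK3, which encodes PERK, went from 233 ± 0.92 to 314 ± 11.5 normalized counts (log2 fold change 0.43, limma adjusted p 6.47e-05). MBTPS1, the protease that cuts ATF6, rose by 0.16, and PPP1R15A, which brings the phosphatase to eIF2 alpha, was at 735 ± 23.7 and 815 ± 40.4. The PPP1R15A call (adjusted p 0.0395) was lost in 7 of the 15 alternatives, with values up to 0.242, among them without Caki2+Vector replicate C or without any Caki2+PBRM1 replicate, and that of MBTPS1 was lost without Caki2+PBRM1 replicate B (0.0553) or C (0.0528). EIF2B5 and EIF2S1, parts of the initiation factors eIF2B and eIF2, and ATF6B were lower, by -0.25, -0.22 and -0.18. The EIF2S1 call was lost without Caki2+PBRM1 replicate A (adjusted p 0.0503) and the ATF6B call (0.0149) in 4 alternatives, with values up to 0.149, among them without Caki2+Vector replicate B or Caki2+PBRM1 replicate A or C. The list had 1 higher gene without Caki2+PBRM1 replicate B or C and 2 lower genes without replicate A.

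ER chaperones and foldases gave 6 higher genes and 1 lower of 19 (median 0.07). ERO1L, the oxidase that recharges protein disulfide isomerase, went from 1406 ± 76.2 to 1926 ± 63.4 normalized counts (log2 fold change 0.45), and P4HB, that isomerase itself, went from 10533 ± 709 to 14103 ± 352 (0.42). DNAJC3, an inhibitor of PERK and co-chaperone of BiP, rose by 0.23. SDF2L1, another ER stress gene, was called lower (-0.37, limma adjusted p 0.00677), although its groups overlapped, at 234 to 299.6 and 187 to 243 normalized counts, and the call was lost without Caki2+PBRM1 replicate A (0.0583). The number of lower genes was then 0, and it was 3 without Caki2+Vector replicate C. The Hsp90 of the ER, HSP90B1, was at 0.07 with an adjusted p of 0.138, and HYOU1 was at -0.02 (0.780).

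ER-associated degradation, the process that HERPUD1 belongs to, had 6 higher genes and 1 lower of 17 (median 0.08). FAM8A1, a partner of the same ubiquitin ligase complex, rose by 0.31 (limma adjusted p 0.00597). EDEM1, which marks misfolded glycoproteins for disposal, went from 1031 ± 12.3 to 1268 ± 17.2 normalized counts (0.30). EDEM2 was lower (-0.21, adjusted p 0.0422). Its call was lost in 7 of the 15 alternatives, including every leave-one-out but that of Caki2+Vector replicate A, and the count of lower genes was then 0. The number of higher genes was 3 without Caki2+Vector replicate B and without each Caki2+PBRM1 replicate.

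ER translocation and COPII export, the entry to and exit from the ER, had 7 higher genes and 1 lower of 18 (median 0.09). SEC24D and SEC31A, coat proteins of export vesicles, rose by 0.50 and 0.29, with SEC24D going from 1169 ± 36.0 to 1655 ± 45.5 normalized counts. SEC61A1, the pore of the translocon, rose by 0.29. SEC23B, a partner of SEC24 proteins in the same coat, was lower, by -0.28. Without Caki2+Vector replicate A or Caki2+PBRM1 replicate A there were 2 lower genes in this list.

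Regulators downstream of ATF4 and CHOP gave 2 higher and 2 lower genes of 14 tested (median 0.03). The secreted GDF15 went from 899 ± 146 to 1288 ± 6.83 normalized counts (log2 fold change 0.53, limma adjusted p 0.00562), and the secreted STC2 from 2317 ± 106 to 3201 ± 104 (0.47). ATF5 was lower, at 404 ± 26.6 and 328 ± 19.5 (-0.30), as was SESN2, an inhibitor of mTORC1 (-0.23). The SESN2 call (adjusted p 0.0301) was lost in 5 alternatives, with values up to 0.243, among them without Caki2+Vector replicate B or C or Caki2+PBRM1 replicate A or C, which left 1 lower gene.

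Amino acid genes that ATF4 is known to act on moved in both directions. Of 10 synthesis enzymes, the group of ASNS, 5 were higher and 1 lower (median 0.28). PHGDH, the entry to serine synthesis, went from 143 ± 17.7 to 282 ± 24.6 normalized counts (log2 fold change 0.98), GPT2 rose by 0.47 and the mitochondrial SHMT2 by 0.45. PSPH, the last enzyme of serine synthesis, was lower (-0.17, limma adjusted p 0.0303), a call lost in 4 alternatives, with values up to 0.130, among them without Caki2+Vector replicate B or Caki2+PBRM1 replicate B or C, which left 0 lower genes. Of 8 transporters, SLC1A4, SLC38A2 and SLC7A11 were higher, by 0.38, 0.35 and 0.17, and none was lower (median 0.14). Without Caki2+Vector replicate A, 1 transporter was called lower. Of 12 aminoacyl-tRNA synthetases, GARS was higher (0.23) and 5 were lower, led by EPRS (-0.19), YARS (-0.18) and NARS (-0.17), with a median of -0.09. There were 3 lower synthetases without Caki2+Vector replicate B or Caki2+PBRM1 replicate A or B, and 2 without Caki2+PBRM1 replicate C, where the NARS call was also lost (adjusted p 0.0612).

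Chaperones of other compartments were listed for comparison. All 12 cytosolic heat shock genes were called lower (median log2 fold change -0.27), with 10 called in DESeq2, without Caki2+Vector replicate C and without each Caki2+PBRM1 replicate, and 12 in the other alternatives. HSPA1A, the inducible Hsp70, was at 1207 ± 26.4 normalized counts in Caki2+Vector and at 849 ± 23.2 in Caki2+PBRM1 (-0.51), HSPA1B was at -0.49 and the small heat shock protein gene HSPB1 at -0.47. HSPA1A and HSPA1B are near-identical copies, so their separate values are uncertain, and several other heat shock genes have pseudogenes that can share reads with them. Of 6 mitochondrial chaperones and proteases, 4 were lower and none higher (median -0.19), with HSPE1 at -0.50, HSPD1 at -0.30 (10014 ± 336 to 8104 ± 104 normalized counts) and HSPA9 at -0.20.

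**Figure D4:**
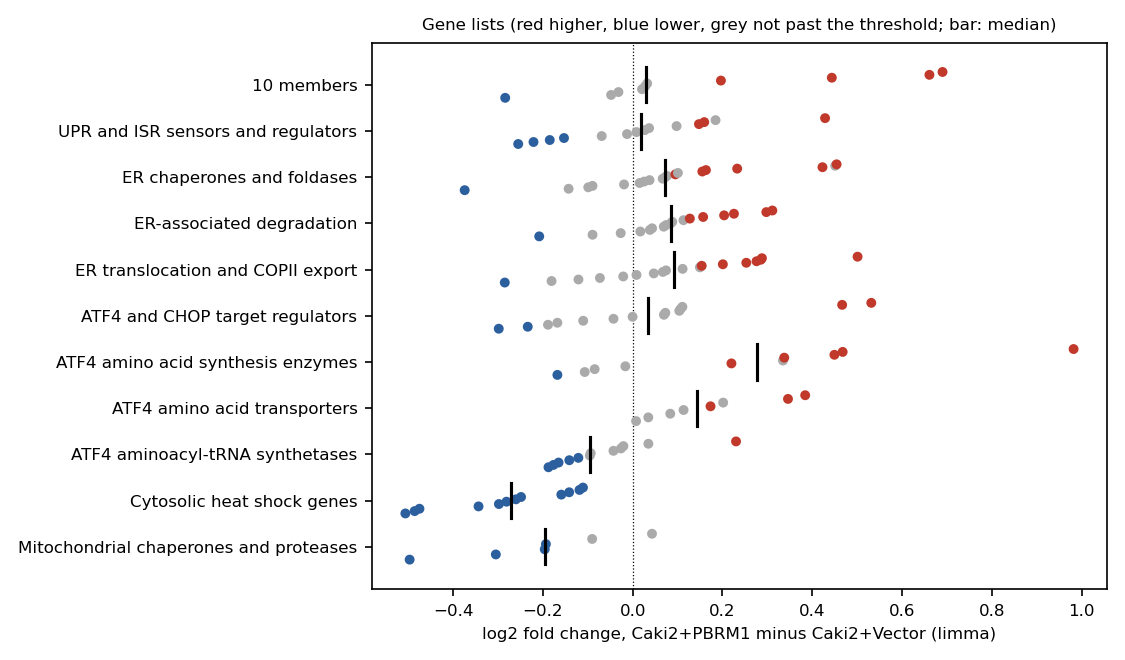
Log2 fold changes (Caki2+PBRM1 minus Caki2+Vector, from limma) of the 10 genes and of the 130 tested genes of 10 pathway lists, with 1 row per list, 1 point per gene and a bar at the list's median. Medians run from -0.27 for cytosolic heat shock genes to 0.28 for amino acid synthesis enzymes.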

How the data were processed

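Poly(A) RNA from 6 samples was sequenced by the authors as 100 bp paired-end reads. They aligned with STAR to hg19, counted reads per UCSC gene with HTSeq and normalized with DESeq2. The deposited signal values are normalized counts, that is, reads divided by a size factor for each sample (0.834 to 1.19). All values above 0 became whole reads (100% within 0.01 reads) once multiplied by that factor, and the recovered reads gave the depths. Precision was limited by the spread between samples. Outside the pairs with Caki2+Vector replicate A, much of this spread was the noise of counting reads (chi-square per degree of freedom 1.19 to 1.34). CHAC1 was limited further by its few reads.

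The main test was limma 3.58.1 (R 4.3.3) on log2(normalized count + 1) with trend and robust empirical Bayes, over 13303 genes with at least 10 normalized counts in at least 3 samples. Benjamini-Hochberg adjusted p under 0.05 was called. The study used DESeq2 on counts, and edgeR 4.0.16 and DESeq2 1.42.0 on the recovered reads were alternatives, as were other filters, pseudocounts of 0.5 and 4, TMM scaling, quantile normalization, a replicate block and leaving out each sample. The fits were also run on simulated data, in which no sample stood apart as Caki2+Vector replicate A does, and the outcome is not used here. Exact permutation tests were two-sided. Ratios used recovered reads, and places and lengths came from GENCODE release 44 lifted to GRCh37. The members and lists were chosen with earlier results of these data known. Named from each list were up to 3 genes per direction with the largest called change and a mean of at least 50 normalized counts in the higher group, and 1 gene that this rule names is not reported here. HSP90B1, HYOU1, FGF21 and the markers were named after their values were seen. Motif counts used the first RefSeq window of each gene.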

Additional observations from a re-analysis of the deposited data

How the results depend on the processing

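XBP1, HERPUD1, DNAJB9 and TRIB3 kept their direction and passed the threshold in all 15 alternatives, and HSPA5, ATF4, ATF3, DDIT3 and ASNS passed it in none. The number of the 10 genes called higher was 3 or 4, set by CHAC1 alone, and the number called lower was 1. CHAC1 also missed the threshold without a filter on low values (adjusted p 0.0699), with a pseudocount of 0.5 (0.0507), TMM scaling (0.0507), quantile normalization (0.0889) and DESeq2 (0.214). Without being called, DDIT3 changed sign in edgeR (-0.0060) and without Caki2+Vector replicate C (-0.091) or Caki2+PBRM1 replicate A (-0.030), and ASNS without Caki2+Vector replicate A (0.053) or Caki2+PBRM1 replicate C (0.093). With 1 sample left out, DDIT3 ran from -0.091 to 0.104 and ASNS from -0.124 to 0.093. Over the table, 3886 genes were called, 2553 with DESeq2 (the cause was not tested) and 2856 to 4170 when 1 sample was left out. Of the 3886 calls 2152 were higher and 1734 lower, and with quantile normalization 1938 and 2083, where the median log2 fold change of all genes was -0.0247. DESeq2 called 3 higher genes of ER-associated degradation. No pairing of the samples by letter was seen. Deviations of samples with the same letter correlated at -0.0077 to 0.0138 across genes, and those of other letters at -0.0243 to 0.0173. Counting noise could hide a weak pairing in these values. With a replicate block 4107 genes were called, CHAC1 was not (adjusted p 0.0579) and ER chaperones had 2 lower genes. CHAC1, at 12 to 31 reads, was limited by depth.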
